A study of Mus musculus with 6 samples.

Results

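Isl1 (ENSMUSG00000042258) was followed across the cell types of the mouse embryonic heart region, with the cardiac, endodermal and neuronal genes found in the same cells. It was taken as the row of the deposited gene list whose symbol is Isl1, 1 of 32285 genes. Of 53362 cell barcodes, 35962 were described, those with 2500 or more genes found and no more than 10% of counts from mitochondrial genes. At least 1 Isl1 molecule was counted in 14353 of them, and 85841 Isl1 molecules were counted in all.

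Isl1 encodes a LIM-homeodomain transcription factor, a DNA-binding protein whose paired LIM domains bind cofactors of the Ldb family. In the embryo it is best known as a marker of the second heart field, the pharyngeal mesoderm that adds cells to the outflow tract, right ventricle and atria, where it is lost as cells become muscle. It is also made in pharyngeal endoderm, in branchiomeric muscle progenitors of the head, and in motor, sensory and autonomic neurons, where its relative Isl2 is often found too.

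The gene lies on the minus strand of chromosome 13, at chr13:116298281-116309689 in the GENCODE M21 annotation (build GRCm38, the same assembly as the mm10 named in the submitters' processing notes). The 250 bases before the start of Isl1 and of Isl2 are printed because Isl1 is the gene described and Isl2 is the closest relative found beside it in neurons. Both come from the RefSeq promoter table (build GRCm38.p6), Isl1 at chr13:116309689-116309938 on the minus strand and Isl2 at chr9:55540899-55541148 on the plus strand. Capitals mark matches, on either strand, to 5 short motifs. These are CCAAT as the box of that name, TAAT as a homeodomain core and GATAA as a core read by GATA factors. The others are TGACG as part of the cyclic AMP response element and CAGCTG as an E-box.
Isl1: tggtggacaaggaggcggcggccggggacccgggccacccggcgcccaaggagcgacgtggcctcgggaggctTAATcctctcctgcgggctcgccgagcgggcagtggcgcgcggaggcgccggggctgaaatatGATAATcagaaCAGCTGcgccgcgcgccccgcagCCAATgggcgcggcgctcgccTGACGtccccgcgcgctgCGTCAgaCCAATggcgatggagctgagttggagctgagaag
Isl2: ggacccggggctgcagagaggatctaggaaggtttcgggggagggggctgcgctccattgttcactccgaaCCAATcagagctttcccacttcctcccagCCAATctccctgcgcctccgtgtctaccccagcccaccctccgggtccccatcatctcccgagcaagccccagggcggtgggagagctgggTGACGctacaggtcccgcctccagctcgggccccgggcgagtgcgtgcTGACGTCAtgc

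The Isl1 window was 71.2% G or C and the Isl2 window 66.8%, against a median of 52.4% over 32851 promoter windows of the same length. The Isl1 window held 2 matches to CCAAT, 2 to TAAT, 1 to GATAA, 2 to TGACG and 1 to CAGCTG. 1 TAAT match and the GATAA match overlap. Of all promoter windows, 33.8% held CCAAT, 54.9% TAAT, 22.6% GATAA, 17.8% TGACG and 13.0% CAGCTG. The Isl2 window held 2 matches to CCAAT and 3 to TGACG, of which 2 overlap on opposite strands, and none to the other motifs. These are matches of letters only, and nothing in these data measured binding there.

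The cells came from wild-type C57BL/6 embryos at embryonic day E10.5, from the microdissected cardiogenic region, which per the labels also holds non-cardiac mesoderm, ectoderm and endoderm. 3 samples came from normal glycemic females given vehicle and 3 from hyperglycemic females given streptozotocin, which destroys insulin-making cells. All females were mated to normal glycemic males. The labels do not say how many embryos a sample holds. They speak of a chromatin assay in 1 field and of RNA in others, among them the 3′ kit, and the counts were read as RNA. Each count is a unique molecular identifier (UMI), which marks 1 RNA molecule caught in a droplet.

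The barcodes end in a number from 1 to 6 that separates 6 libraries, and none of the files used says which sample each number stands for. Streptozotocin was therefore not compared with vehicle. Each library is given without a group, the matrix counts as 1 sample and no test was made. The libraries kept 4903 to 7136 cells each, with median depths of 30533 to 35634 UMIs per cell. Library 1 stands apart by Xist at 383 CPM, where CPM is UMIs per 1000000, against 0.342 CPM or less in the other 5, which carried Y-linked Ddx3y. Of the retained cells, 2890 had a barcode sequence found in more than 1 library. Isl1 over all cells of a library was 58.7 CPM in library 3, the lowest, and 70.4 CPM in library 1, the highest, with a median of 65.8 CPM.

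Cells were named by 17 marker gates, each a list of genes with a minimum number of UMIs, and Isl1 was in no gate. The gates named 25216 cells, 6843 passed none, and 3903 passed gates of conflicting lineages and were set aside. Cells passing both the cardiomyocyte and the anterior heart field gate were kept as a type of their own and are called double-gated cells. With a median of 50486 UMIs they were deeper than cardiomyocytes (36623 UMIs) and anterior heart field cells (28730 UMIs). Their leading genes against all other cells were contractile (Abra, Myh7, Acta1, Lmod3), which goes against reading them as cells only starting to differentiate, and they are called by their gates. The anterior heart field gate uses Tbx1, Fgf10, Fgf8 and Nkx2-5. Moxd1, Fgf10 and Ntng1 were among its leading genes, with only Fgf10 of the gate genes among the 10 leading genes. Cells of the neuron gate were led by Nefm, Thsd7b, Tlx2 and Neurod1, and cells of the endoderm gate by Sfta3-ps, Foxe1, Vgll2 and Nkx2-1.

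Isl1 was highest in neurons and in branchiomeric muscle progenitors, followed by the anterior heart field and the endoderm. Levels are Isl1 UMIs per 1000000 UMIs summed over a type, with 95% exact Poisson intervals that cover counting error only. In the 266 neuron-gated cells Isl1 was 403 CPM (390 to 417), with libraries from 273 to 492 CPM and a median of 414 CPM. In the 597 branchiomeric muscle cells it was 391 CPM (383 to 400), from 298 to 475 CPM with a median of 373 CPM. These top 2 types did not differ beyond their spread, since neurons were higher in 3 of 6 libraries and the intervals overlap.

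The 1287 anterior heart field cells had 188 CPM of Isl1 (183 to 192), with libraries from 138 to 250 CPM and a median of 186 CPM. Branchiomeric muscle was 2.09-fold higher, in 6 of 6 libraries, with no overlap of the libraries' ranges. The 3166 endoderm cells had 157 CPM (155 to 160), from 126 to 201 CPM with a median of 157 CPM. Endoderm was below the anterior heart field within each of the 6 libraries, while the ranges over libraries overlap. Library 1 was the highest and library 5 the lowest in both of these types.

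Cardiomyocytes (1885 cells), the double-gated cells (852 cells), the posterior heart field with foregut mesenchyme (2367 cells), smooth muscle (120 cells) and surface ectoderm (1767 cells) lay between 65.7 and 99.7 CPM. Neighbours among these 5 overlapped in their library ranges. By summed counts the cardiomyocyte level of 66.3 CPM (64.5 to 68.2) could not be set apart from the 65.7 CPM of surface ectoderm. Below them came cushion mesenchyme at 39.7 CPM and epicardium at 27.8 CPM, then endothelium at 13.9 CPM and neural crest and glia at 11.96 CPM. The largest type, crest mesenchyme with 6562 cells, had 7.43 CPM, and paraxial mesoderm 3.53 CPM. Doubling the gate minimum brought epicardium to 16.5 CPM, cushion mesenchyme to 24.5 CPM and crest mesenchyme to 4.30 CPM, and leaving out library 5 brought neural crest and glia to 7.54 CPM.

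Erythroid cells, which are not known to make Isl1, were taken as a guide to the background. They had 0.903 CPM (0.719 to 1.12), and 2.65% of them had an Isl1 UMI at a median depth of 63831 UMIs. Without the cells of highest doublet score this level was 0.313 CPM. Myeloid cells and megakaryocytes (99 cells) had 0.701 CPM at a median depth of 58247 UMIs. The background in types with shallower cells was not measured.

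**Figure D1:**
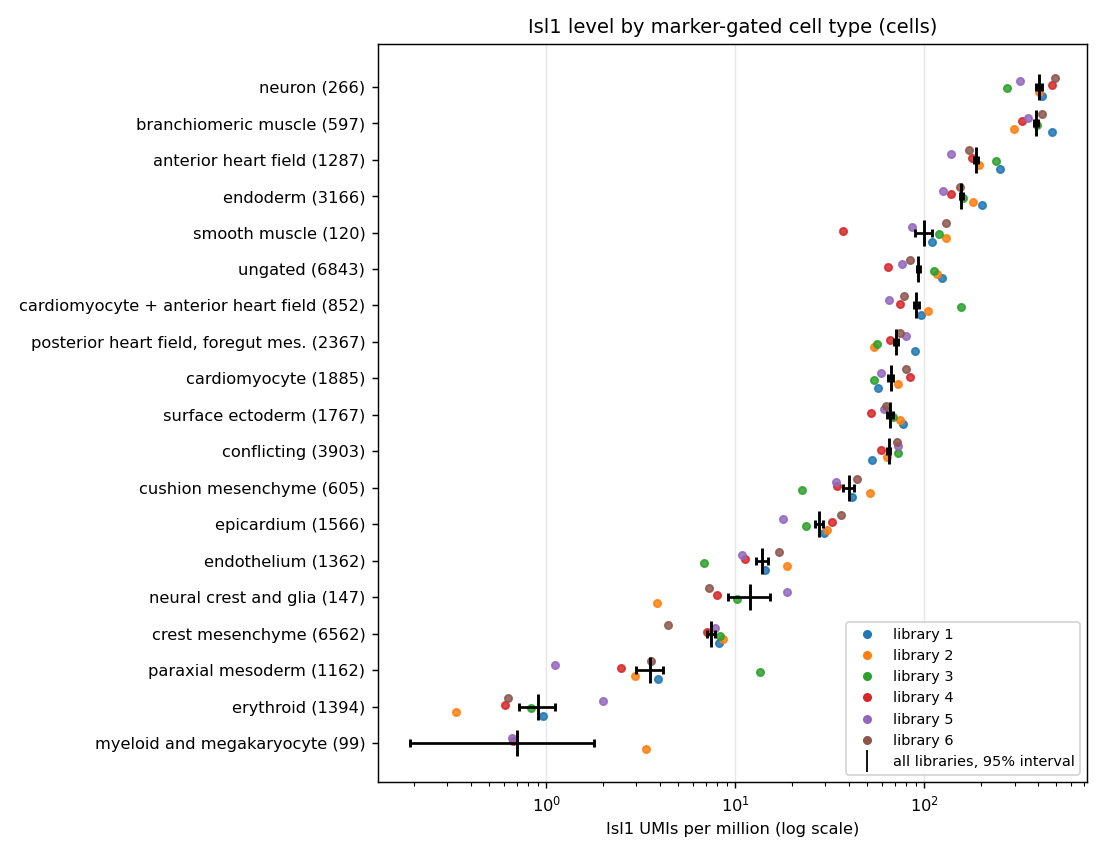
Isl1 level in each gated type with at least 50 cells (number of cells in brackets), on a log axis of UMIs per 1000000. Coloured points are the 6 libraries, black marks all libraries together with the 95% Poisson interval, and libraries with no Isl1 UMI in a type are not drawn. Neurons and branchiomeric muscle lie near 400 CPM over all libraries, and no erythroid library is above 2.004 CPM.

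Since the share of cells with a UMI follows depth, each cell was thinned to 10000 UMIs, and 1009 shallower cells were left out. Isl1 was then found in 92.5% of branchiomeric muscle cells (Clopper-Pearson 95% interval 90.1 to 94.5), 82.6% of neurons (77.4 to 87.1), 64.3% of endoderm cells (62.6 to 66.0) and 62.7% of anterior heart field cells (60.0 to 65.4). The shares without thinning were 97.5%, 89.8%, 84.1% and 74.2%. In erythroid cells the thinned share was 1.15%. The posterior heart field had 31.7%, cardiomyocytes 27.7% (25.7 to 29.8) and surface ectoderm 36.4% (34.1 to 38.7). The mean per thinned cell was higher in cardiomyocytes, at 0.892 Isl1 UMIs against 0.704 in surface ectoderm. Anterior heart field cells with 3 or more Isl1 UMIs made up 33.9% at this depth, against 23.5% in endoderm, although their shares with any UMI were close.

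Within the cardiomyocyte gate, Isl1 differed by chamber gate. The 544 ventricular cells, marked by Myl2, Irx4, Hey2 and Cited1, had 4.03 CPM of Isl1 (3.31 to 4.87), with libraries from 0.500 to 7.53 CPM. The 211 atrial cells had 14.1 CPM (11.7 to 16.8), from 5.14 to 19.6 CPM. The 137 outflow cells, marked by Tdgf1, Rspo3, Sema3c and Wnt11, had 287 CPM (272 to 304), from 274 to 328 CPM. Each library's outflow value was above all ventricular and atrial values. With every cell thinned, so that each counts the same, the ventricular level was 6.92 CPM and the atrial level 24.8 CPM.

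The 190 cardiomyocytes that passed no chamber gate had the highest level of the gate, 347 CPM (331 to 363), with libraries from 307 to 415 CPM. The 48 cells with sinus genes (Shox2 with Tbx18, Hcn4, Tbx3 or Vsnl1) had 75.1 CPM, from 36.0 to 137 CPM. Those sinus cells were shallow, with a median of 11943 UMIs and 4 to 13 cells a library. The other 755 cardiomyocytes passed several chamber gates and had 57.9 CPM.

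**Figure D2:**
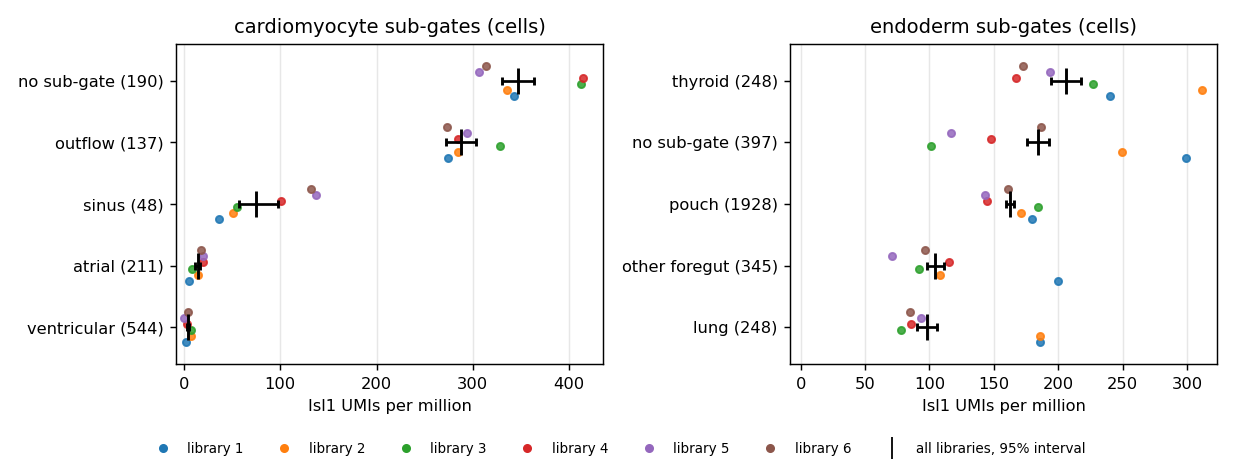
Isl1 in UMIs per 1000000 within the cardiomyocyte and endoderm gates, by sub-gate (number of cells in brackets), with 1 point per library and the level of all libraries with its 95% Poisson interval in black. Outflow cells and cells of no chamber gate lie above 270 CPM, ventricular cells below 8 CPM.

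To set Isl1 beside contractile gene level, cells of the anterior heart field gate, double-gated cells and cardiomyocytes were put in 8 bins. The bins are of their summed cardiomyocyte gate genes (Tnnt2, Actn2, Ttn, Myh6, Tnni1, Tnnc1, Ryr2 and Myl4), a description added after other values were seen. The lowest bin held only cells of the anterior heart field gate, and the highest 67.5% cardiomyocytes and 32.5% double-gated cells. The part of gate and chamber make-up in the levels by bin was not tested. Isl1 was 168 CPM in the bin below 250 CPM of contractile genes (1089 cells) and 301 CPM in the next, up to 500 CPM. That step was upward in 6 of 6 libraries. It stayed between 297 and 357 CPM in the 4 bins from 500 to 8000 CPM, which held 83 to 128 cells each. Above 8000 CPM of contractile genes it was 169 CPM, and above 16000 CPM (2157 cells) it was 42.7 CPM, lower in 6 of 6 libraries. Leaving out a library moved the level of the bin from 2000 to 4000 CPM between 337 and 376 CPM, and library 3 had only 4 cells there. The bin from 1000 to 2000 CPM moved more, between 283 and 378 CPM, as did that from 4000 to 8000 CPM, between 261 and 319 CPM.

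Other genes of the same cells had other patterns over the bins. Tbx1, a T-box factor of the pharyngeal mesoderm, was 130.5 CPM in the lowest bin and 1.4 CPM in the highest, but it is a gate gene of the cells that fill the lowest bins. Mef2c, a MADS-box factor that acts in the anterior heart field and in muscle, was 88.0 CPM in the lowest bin and had its highest level, 622 CPM, between 4000 and 8000 CPM of contractile genes. Hand2, a basic helix-loop-helix factor of the heart fields, was highest at 264 CPM in the bin from 1000 to 2000 CPM. Nkx2-5, a homeodomain factor of cardiac cells, was highest at 186 CPM in the last bin, where Isl1 was lowest. Nkx2-5 is also a gene of the anterior heart field gate, which the double-gated cells of that bin pass.

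**Figure D3:**
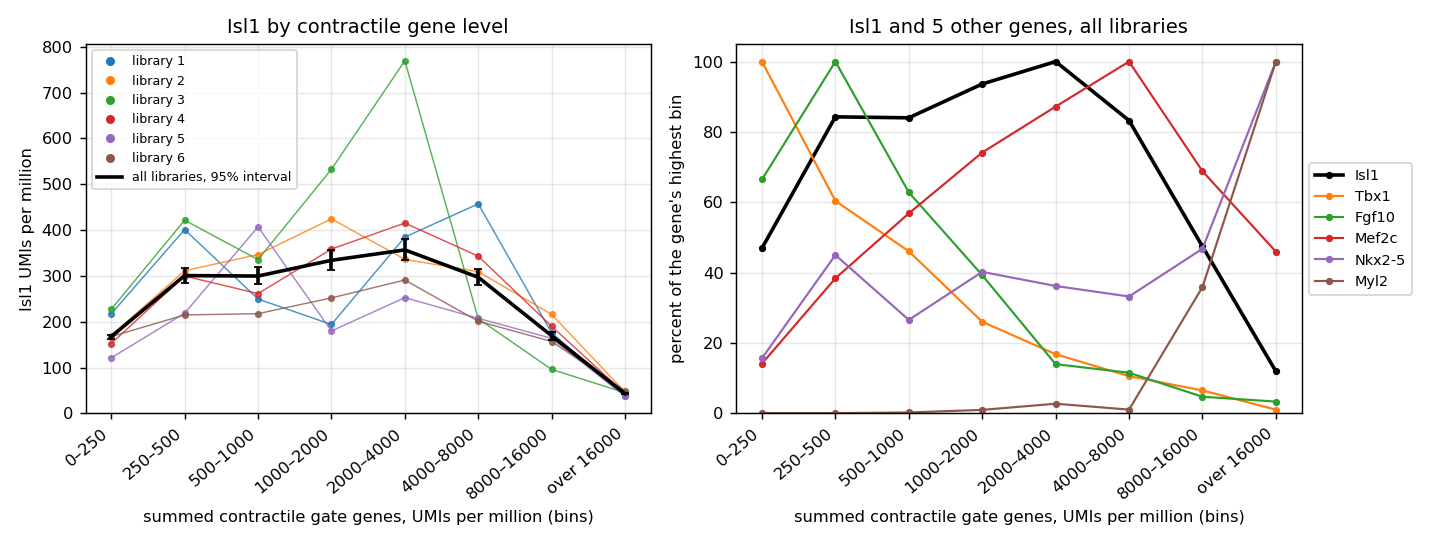
Left, Isl1 in UMIs per 1000000 in 8 bins of summed contractile gate genes, by library (coloured) and for all libraries with 95% Poisson intervals (black). Right, Isl1 and 5 other genes in the same bins as a percent of each gene's highest bin, where Isl1 is highest between Tbx1, high in the first bin, and Myl2, high in the last.

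Genes found together with Isl1 were counted within each type. A cell was positive with at least 1 Isl1 UMI after thinning, and a gene was called higher or lower where its level, as CPM plus 1, differed by at least 1.5-fold between positive and negative cells and in the same direction in each library with at least 20 cells on both sides. Genes with at least 20 CPM on either side were compared. A low gene can enter through the side where it is high, so the counts of listed genes are descriptions. In the anterior heart field, endoderm, surface ectoderm, epicardium, ungated cells and neurons the calls are also described for genes with at least 20 CPM over the cells of both sides together, a rule added after the values were seen. In cardiomyocytes, double-gated cells and the posterior heart field each called cardiac gene is compared by both rules. Leading genes are ordered by ratio, which favours genes low in negative cells, and those under 20 CPM over both sides are named as such. Some listed genes were named after their values were seen. A negative cell at this depth can still express Isl1.

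In the anterior heart field (797 positive and 474 negative cells), several cardiac transcription factors were higher in positive cells. Of 7031 genes compared, 199 were higher (2.83%) and 112 lower (1.59%). Of the 30 cardiac genes 21 were compared, 9 were higher and 2 lower. By the level over both sides 18 cardiac genes were compared, 7 were higher and 1 lower, beside 2.52% and 1.23% of 6749 genes. Gata5 and Smyd1 reached 20 CPM only in positive cells and Wnt2 only in negative cells, and they were not compared by the second rule. Hand1, a helix-loop-helix factor of the outflow region and left ventricle, was in 23.6% of positive and 2.95% of negative cells, an 11.7-fold ratio. Tbx20, a T-box factor of the heart, was in 12.8% and 1.90%, a 9.23-fold ratio.

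The GATA factors Gata5 (3.16-fold) and Gata6 (2.37-fold), Hand2 (2.91-fold), Mef2c (1.98-fold), the forkhead gene Foxf1 (1.87-fold) and Smyd1, a methyltransferase of heart muscle (3.75-fold), were also higher. Nkx2-5 was 6.14-fold higher, but it is a gene of that gate. The 2 lower genes were Wnt2 (0.329-fold) and Tbx3 (0.538-fold). Neither is a gene of the anterior heart field gate. Wnt2 serves the gate of the posterior heart field, and both are known from the posterior heart field or inflow region. Of the LIM genes only Lhx2 was called, at 25.7 CPM in positive and 5.49 CPM in negative cells, and it was not compared by the level over both sides. Gata3 (3.23-fold) and the neurotrophin receptor Ntrk2 (1.93-fold), both on the neuronal list, were higher. Beyond the lists, the leading genes were Mylk3, a myosin light chain kinase of heart muscle (7.30-fold), Nebl, which encodes a thin filament protein (6.64-fold), and Rgs5, a regulator of G protein signalling (6.598-fold). Mylk3 was under 20 CPM over both sides.

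Among cardiomyocytes (510 positive and 1329 negative cells), 831 of 6725 genes were higher in positive cells (12.4%) and 398 lower (5.92%), so a call is common there. Of 21 cardiac genes compared 9 were higher and 3 lower. Tnnt2, cardiac troponin T and a gate gene, was lower at 2661 CPM against 4057 CPM, while Myl7, the atrial myosin light chain, had a ratio of 0.710 and was not called. Nkx2-5 was lower, found in 34.3% against 75.9% of cells (0.347-fold). Tbx2, a repressor of chamber genes in the atrioventricular canal, was also lower (0.544-fold). Among the higher genes Bmp4, a signal of the outflow tract, was in 86.9% of positive and 20.02% of negative cells (5.65-fold), and Hand2 in 73.3% and 44.5% (3.00-fold). Hand1 (2.66-fold), Myocd, the smooth and cardiac muscle coactivator (2.45-fold), Gata5 (2.08-fold), Mef2c (1.90-fold) and Gata6 (1.79-fold) were higher too.

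Of the sinus node genes on the list, Shox2, a homeobox gene of the node, was higher at 205 CPM against 90.8 CPM (2.24-fold), as was Hcn4, its pacemaker channel, at 52.0 against 24.0 CPM (2.12-fold). Tbx3 (0.822-fold) and Tbx18 (1.19-fold), which the sinus gate also uses, were compared and not called. The LIM-only genes Lmo2 (4.66-fold) and Lmo4 (1.86-fold) and Rlim, a ubiquitin ligase of LIM cofactors (1.51-fold), were higher. Ntrk3, a neurotrophin receptor, was 52.4 CPM against 1.204 CPM, and Rgs5 was 327 against 10.9 CPM. With them Nrp2, a semaphorin receptor of vessels and outflow (18.9-fold), Mecom (17.5-fold) and Pik3c2g (17.1-fold) led the list. Ntrk3 and Pik3c2g were under 20 CPM over both sides. The chamber make-up differs between positive and negative cardiomyocytes, as the levels by chamber gate show, and its part in these ratios was not tested.

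In the double-gated cells (298 positive and 554 negative) 777 of 6614 genes were higher (11.7%) and 338 lower (5.11%). Of 21 cardiac genes compared 9 were higher, with Bmp4 at 5.53-fold, Hand1 at 3.55-fold, Gata5 at 3.47-fold, Hand2 at 2.33-fold, Mef2c at 2.23-fold, Fgf8, a gate gene, at 2.07-fold, Myocd at 2.04-fold, Gata6 at 1.90-fold and Smyd1 at 1.52-fold. Nkx2-6, a homeobox gene of the pharynx and outflow tract on the endodermal list, was in 16.8% of positive and 0.722% of negative cells. Lmo4 was 63.1 CPM against 41.7 CPM and was called higher, and Wnt2 was lower (0.639-fold). The leading genes were Dlg2, Rgs5, Pik3c2g, Ntrk3 and Epha6. Pik3c2g, Ntrk3 and Nkx2-6 were under 20 CPM over both sides.

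The posterior heart field and foregut mesenchyme (742 positive and 1597 negative cells) had fewer calls, 76 of 6896 genes higher (1.10%) and 89 lower (1.29%). Of 17 cardiac genes compared 6 were higher and none lower. Gata4, a GATA factor of the heart, was in 47.7% of positive and 16.7% of negative cells (3.07-fold), beside Gata5 (2.65-fold), Myl7 (2.39-fold), Bmp4 (2.35-fold), Gata6 (2.12-fold) and Mef2c (2.08-fold). The cofactor Ldb2 was lower (0.451-fold), as was Lmo4 (0.630-fold). Among the leading genes were Hs3st2 (6.14-fold), Cntn3 (5.48-fold), Pcdh17 (3.89-fold) and Etv1 (3.85-fold), of which Etv1 alone reached 20 CPM over both sides.

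In the epicardium gate only 192 cells were positive against 1338 negative, and 256 of 7039 genes were higher (3.64%) and 384 lower (5.46%). Tbx18, an epicardial gate gene, was lower in positive cells (0.208-fold), with Myl7 (0.333-fold), Tnnt2 (0.415-fold) and Tubb3 (0.0984-fold). Higher were Nkx2-5 (13.99-fold), Smyd1 (3.92-fold), Bmp4 (2.88-fold), Gata5 (2.36-fold) and Hand2 (1.75-fold). Ntng1, a leading gene of the anterior heart field gate, was 108 CPM in the positive and 4.56 CPM in the negative epicardial cells. By the level over both sides 3 of 15 cardiac genes were higher and 3 lower, beside 2.75% and 5.53% of 6588 genes, and Nkx2-5, Smyd1 and Ntng1 were not compared. Lhx9, highest in epicardium among the types, had a ratio of 0.574 and was not called. The part of these genes in the epicardial level was not tested.

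**Figure D4:**
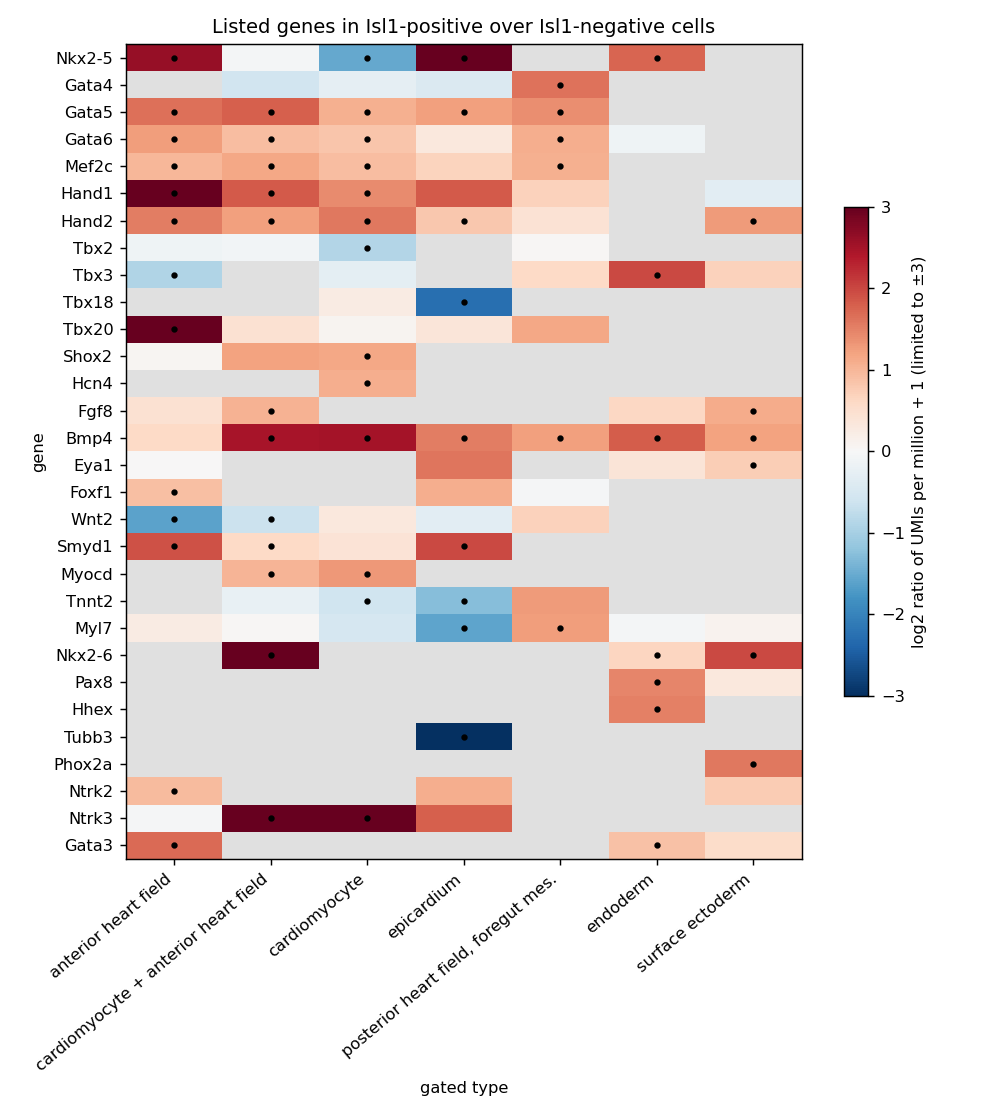
Log2 ratio of CPM plus 1 in Isl1-positive over Isl1-negative cells for 30 listed genes (rows, cardiac then endodermal then neuronal) in 7 gated types (columns), red for higher and blue for lower, limited to 3 either way. Black dots mark calls and grey marks genes not compared. Bmp4 was called in 6 of the 7 types, and Gata5 and Hand2 in 5 each, with Gata5 in the anterior heart field and Hand2 in surface ectoderm under 20 CPM over both sides.

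In the endoderm Isl1 was found in each regional sub-gate, and the order of the sub-gates was not the same in every library. The 1928 cells with pharyngeal pouch genes (Pax1 or Pax9, no Nkx2-1) had 163 CPM (160 to 166), with libraries from 143 to 184 CPM. The 248 thyroid cells, which had Nkx2-1 with Pax8, Foxe1 or Hhex, had 206 CPM (194 to 217), from 167 to 312 CPM. The 248 lung cells, with Nkx2-1 and Foxa2 alone, had 97.9 CPM (90.7 to 106), and other foregut cells with Foxa2 had 104.6 CPM (98.3 to 111). Lung and other foregut overlapped in interval and range. Their libraries ranged from 77.9 to 186 CPM in lung and from 71.3 to 200.1 CPM in other foregut, where library 1 was highest. Lung was above pouch in library 1 (186.1 against 180.0 CPM) and library 2 (186.1 against 170.8 CPM) and below it in the other 4, and other foregut was above pouch in library 1 alone. Lung cells of libraries 1 and 2 numbered only 14 and 12. Endoderm cells of no sub-gate had 184 CPM.

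Isl1-positive endoderm cells (1993, against 1106 negative) differed from negative ones in few genes, 92 of 6933 higher (1.33%) and 20 lower (0.288%). Of the 14 endodermal genes compared 3 were higher and none lower. The count was the same by the level over both sides, where 1.16% of 6733 genes were higher and 0.193% lower. Pax8, a paired-box factor of the thyroid and a gate gene, was 30.2 CPM against 10.3 CPM (2.76-fold). Hhex, a homeobox factor of thyroid and liver buds, was 28.3 CPM against 9.22 CPM (2.87-fold). Nkx2-6, also a gate gene, was in 37.9% against 24.0% of cells (1.57-fold). Foxa2, Shh, Sox2 and Pax9, on the same list, had ratios of 0.647, 0.980, 0.789 and 1.27 and were not called.

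Of 10 cardiac genes compared in the endoderm 3 were higher, and by the level over both sides 2 of 8. Tbx3, a T-box repressor, was in 22.3% of positive and 7.96% of negative cells (3.95-fold), Bmp4 in 34.3% and 13.9% (3.51-fold) and Nkx2-5 in 17.3% and 5.61% (3.37-fold). Nkx2-5 is known in pharyngeal endoderm and thyroid as well as in the heart. It reached 20 CPM only in positive cells and was not compared by the level over both sides. Of the heart muscle genes, Myl7 was not called and Tnnt2 and Smyd1 lay below the level compared. Smyd1 was 9.08 CPM in positive and 1.63 CPM in negative cells, higher in 6 of 6 libraries. Gata3, on the neuronal list but known also from the pharyngeal pouches, was in 31.7% and 18.4% of cells (1.84-fold). Beyond the lists Iigp1, Rgs5, Unc5c and Nrxn3 led with ratios of 4.58, 4.41, 4.35 and 4.04, with Iigp1 and Rgs5 under 20 CPM over both sides. Within pouch cells alone 52 of 6776 genes were higher (0.767%) and 25 lower (0.369%). Bmp4 (3.52-fold) and Nkx2-5 (2.70-fold) were still called there, while none of 10 endodermal genes was. Nkx2-6, higher in 6 of 6 libraries, fell just short at 1.48-fold, and Pax8 and Hhex were too low there to be compared.

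In neurons most cells were positive. Only 44 neurons were negative after thinning, and only 1 library had enough of them, so no call was made between positive and negative neurons. Neuronal genes were in fewer of the negative cells. Elavl3, a gate gene, was in 20.5% of them against 79.9% of the 209 positive cells, Phox2a in 22.7% against 85.2% and Isl2 in 4.55% against 42.6%. Mef2c was 136 CPM in negative and 15.3 CPM in positive cells, and the LIM-only gene Lmo4 was in 86.4% and 33.0% of cells.

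The 102 neurons of all libraries above the median of 4 Isl1 UMIs were then compared with the 151 at or below it, a split added after seeing these counts. Levels are over all 6 libraries, and a call needed the same direction in libraries 4, 5 and 6, which had 20 cells on both sides. Of 7185 genes 319 were higher (4.44%) and 286 lower (3.98%). Of 20 neuronal genes compared 8 were higher and none lower. By the level over both sides 6 of 17 were higher and none lower, beside 3.69% and 3.45% of 6723 genes. Neurod4, a differentiation factor, was in 75.5% against 41.7% of cells (2.36-fold). Neurog1 (1.84-fold), Neurod1 (1.67-fold), Phox2a (1.67-fold), Elavl3 (1.59-fold) and Elavl4 (1.57-fold) completed these 6. Elavl3 and Elavl4 are gate genes. Chat, which makes acetylcholine, at 32.4 CPM against 9.27 CPM (3.25-fold), and Pou4f1 (1.97-fold) were higher only by the first rule, since both were under 20 CPM over both sides. Gal, a neuropeptide, was 310 CPM against 60.9 CPM. Lmo4 (0.320-fold), Ssbp4 (0.357-fold) and Ssbp2 (0.657-fold), cofactors of LIM proteins, were lower with Mef2c (0.156-fold) and Tbx2 (0.523-fold), while Tbx3 was higher (1.59-fold).

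Branchiomeric muscle progenitors, marked by Myf5, Msc, Tcf21, Lhx2, Myod1 and Musk, were nearly all positive, so that no library had 20 negative cells. The 229 cells above the median of 4 UMIs and the 359 at or below it differed in few genes, 55 of 6886 higher (0.799%) and 47 lower (0.683%). Fgf10, a growth factor of the anterior heart field, was higher (1.56-fold) and the cofactor Ldb2 lower (0.528-fold). No neuronal gene was called and no endodermal gene was compared. Galntl6 and Runx1 were among the leading genes, Runx1 at 142 CPM against 55.7 CPM.

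In surface ectoderm (623 positive and 1089 negative cells) 95 of 7140 genes were higher (1.33%) and 75 lower (1.05%). Isl2 was 25.04 CPM against 11.2 CPM (2.13-fold) and the LIM-only gene Lmo1 49.4 CPM against 23.1 CPM (2.09-fold). The signals Bmp4 (2.31-fold) and Fgf8 (2.15-fold) were higher, with Eya1, a transcriptional coactivator of placodes (1.68-fold), Hand2 (2.42-fold), Nkx2-6 (3.96-fold) and Phox2a (2.97-fold). Isl2, Hand2 and Nkx2-6 reached 20 CPM only in positive cells and were not compared by the level over both sides, where 1.02% of 6894 genes were higher and 1% lower. Nkx2-6, Pde11a, Mybpc1 and Cyp26b1 led the list, of which Mybpc1 alone reached 20 CPM over both sides.

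The 6843 cells that passed no gate held 17.9% of all Isl1 UMIs, at 93.1 CPM (91.6 to 94.6), with libraries from 64.3 to 125 CPM and a median depth of 23139 UMIs. Within them 2271 cells were Isl1-positive and 4000 negative after thinning, and 263 of 6856 genes were higher in the positive cells (3.84%) and 49 lower (0.715%). Of 19 cardiac genes compared 9 were higher (Gata5, Gata6, Mef2c, Hand1, Hand2, Tbx20, Fgf10, Bmp4 and Smyd1) and Tbx18 was lower, though none of these cells passed a cardiac gate. By the level over both sides 14 were compared, with 5 higher (Gata6, Mef2c, Hand1, Hand2 and Bmp4) and none lower, beside 2.85% and 0.624% of 6572 genes. Gata3 (3.43-fold) and the epithelial gene Epcam (1.52-fold) were higher by both rules, and Lmo2 (2.48-fold) by the first alone. Plcl1, Cntn1, Csmd1 and Filip1 led the list, with ratios of 5.98, 5.83, 5.31 and 4.84, and of these Plcl1 alone reached 20 CPM over both sides. The 3903 cells set aside for conflicting gates held 14.3% of the Isl1 UMIs, at 64.8 CPM.

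The other LIM genes had other patterns across types. Isl2 was 56.2 CPM in neurons, 14.4 CPM in surface ectoderm and 5.53 CPM in endoderm, and 0.247 CPM in branchiomeric muscle, where Isl1 was at its second highest. Of the cells with an Isl1 UMI, 14.2% had an Isl2 UMI, without thinning. After thinning, Isl2 was in 7.21% of Isl1-positive and 1.33% of Isl1-negative cells, all types together. Lhx2 was 216 CPM in branchiomeric muscle, whose gate it serves, and 15.1 CPM in the anterior heart field. Lhx9 was highest in epicardium at 44.6 CPM, Lhx8 in crest mesenchyme at 8.17 CPM and Lhx6 in endothelium at 5.61 CPM. Lhx8 and Lhx6 are both genes of the crest mesenchyme gate. Lhx3, which partners Isl1 in motor neurons, stayed at 0.380 CPM or less in every type.

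The cofactors were broad. Ldb1, the general LIM cofactor, lay between 14.1 and 39.9 CPM over the 17 types, and Ssbp3, which stabilises it, was highest in neurons at 253 CPM. Ldb2 was highest in endothelium at 202 CPM and 1.68 CPM in cardiomyocytes. Lmo4 was 677 CPM in neural crest and glia, where Isl1 was 11.96 CPM.

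**Figure D5:**
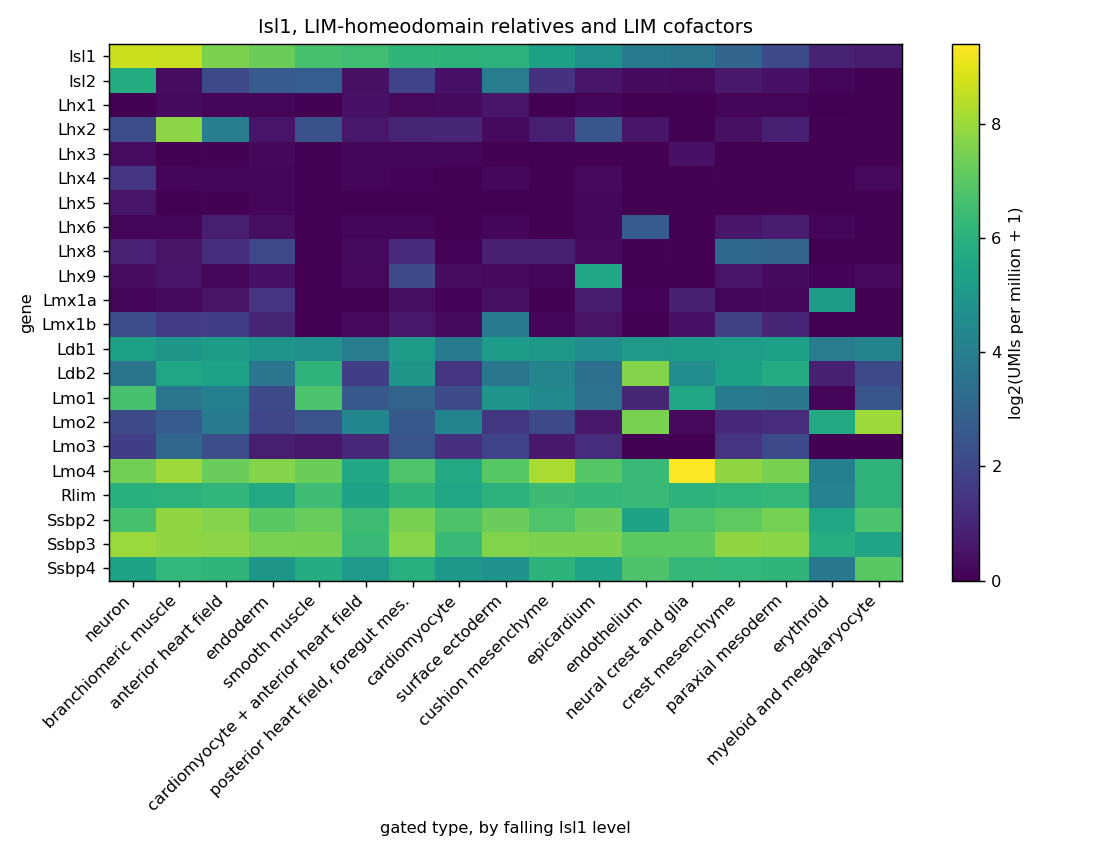
Level of Isl1, its LIM-homeodomain relatives and LIM cofactors as log2 of UMIs per 1000000 plus 1 (colour) in gated types ordered by falling Isl1. Isl2 is brightest in neurons, Lhx2 in branchiomeric muscle, and Ldb1 and the Ssbp genes are present in all columns.

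The genes whose pattern was most like that of Isl1 were ranked by Pearson's r of log2 CPM plus 1 over the 17 types, among 11851 genes with at least 10 CPM in some type. The types share libraries and differ in median depth, from 24628 UMIs in surface ectoderm to 63831 UMIs in erythroid cells, so r is a description. The 10 leading genes were Clstn2 (0.89), Ypel3 (0.88), B3galnt1, Parm1 and Nav2 (0.86 each), Hist3h2a and Ankrd12 (0.85 each), and Cdh13, Tmtc1 and Kcnb2 (0.84 each), and none was a gate gene. Clstn2, a calsyntenin of synapses, was 81.4 CPM in neurons, 74.9 CPM in the anterior heart field, 64.1 CPM in cushion mesenchyme and 54.7 CPM in endoderm, against 2.52 CPM in endothelium. Nav2, which acts in neurite growth, was 436 CPM in neurons and 102 CPM in cardiomyocytes. Ypel3 ranged only from 9.81 to 52.8 CPM over the types and Ankrd12 from 10.7 to 46.0 CPM, against 0.701 to 403 CPM for Isl1. Kcnb2, a potassium channel, was 160.4 CPM in neurons, 69.7 CPM in the posterior heart field and foregut mesenchyme and 48.7 CPM in the anterior heart field, an order unlike that of Isl1. Among the listed genes the highest r was 0.72 for Ntrk2, then 0.64 for Tbx1 and Eya1, and for Nkx2-5 it was 0.50. By rank correlation only 3 of the 10 leading genes stayed among the first 10.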

How the data were processed

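The authors deposited 1 matrix of raw UMI counts per gene and barcode, which per the file headers came from Cell Ranger 5.0.0. The submitters' processing notes name build mm10, CASAVA 1.8 and Seurat 4. Members, lists and gates were chosen with earlier results of these data known. Cells kept had at least 2500 genes and at most 10% mitochondrial UMIs, which removed 17029 and then 371 barcodes. CPM is UMIs per 1000000 from summed counts, with exact Poisson intervals; shares have exact binomial (Clopper-Pearson) intervals, after thinning to 10000 UMIs. Doublets were removed only through conflicting gates; removing the highest Scrublet scores (scanpy 1.11.5) at 0.8% per 1000 barcodes was an alternative. Python 3.11.15, numpy 2.4.6, scipy 1.17.1 and pandas 2.3.3 were used, and the likeness and co-detection code was tested on simulated data. Genes were named first by 3 rules: up to 8 per list by difference in share, the 10 most like Isl1, and the 5 highest ratios per type. Listed genes outside these rules were also named, after their values were seen. Streptozotocin against vehicle was not run, because no file used here pairs libraries with samples. Results on some genes are not reported here.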

Additional observations from a re-analysis of the deposited data

How the results depend on the processing

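No paired analysis was possible because no file used here pairs libraries with samples, so the test of streptozotocin against vehicle and its alternatives (edgeR, DESeq2, a replicate block, samples left out) were not run. With the gate minimum doubled, Isl1 was 69.9 CPM in cardiomyocytes, 160.7 in endoderm, 446 in neurons, 413 in branchiomeric muscle and 225 in the anterior heart field. Cells passing exactly 1 gate gave 475 CPM in neurons, 360.5 in branchiomeric muscle and 232 in the anterior heart field. Without shared barcodes the levels were 72.3 in cardiomyocytes, 427 in neurons and 194 in the anterior heart field. Without the highest doublet scores they were 63.7, 422 and 199.6 CPM in cardiomyocytes, branchiomeric muscle and anterior heart field. Weighting libraries equally gave 160.3 in endoderm, 378 in branchiomeric muscle and 195 in the anterior heart field. After thinning they were 89.2, 443, 402 and 209 CPM in cardiomyocytes, neurons, branchiomeric muscle and anterior heart field. Leaving out each library gave 63.9 to 69.3 CPM in cardiomyocytes, 150.2 to 165 in endoderm, 381 to 438 in neurons, 363 to 406 in branchiomeric muscle and 177 to 201 in the anterior heart field.

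The share of positive cells depends on depth. Without thinning, at 5000 UMIs and with at least 2 UMIs it was 84.1%, 47.1% and 40.5% in endoderm, 89.8%, 74.1% and 71.5% in neurons, and 74.2%, 49.9% and 47.2% in the anterior heart field. Requiring at least 2 UMIs raised the genes called higher in endoderm from 92 to 161, with 90 shared. At 5000 UMIs 53 of the 92 were called again. Of the genes called higher elsewhere, 89 of 199 were called again in the anterior heart field and 524 of 831 in cardiomyocytes. In the posterior heart field and foregut mesenchyme 31 of 76 were. Of the 10 genes most like Isl1, 3 stayed by Spearman's rho and 6 among genes of at least 50 CPM. Of 338 alternative levels over all types and sub-gates, 13 moved by over 1.5-fold, all in types or sub-gates below 40 CPM. The myeloid level, 0.701 CPM, was 1.70 with the gate doubled, 0.272 without shared barcodes, 0.391 without library 2, and 0 after thinning or without the highest doublet scores. Epicardium was 17.3 CPM with exactly 1 gate passed.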

Other observations

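Rgs5 was among the 5 leading genes of Isl1-positive cells in the anterior heart field, double-gated cells, cardiomyocytes, epicardium and endoderm. Its ratios there were 6.598, 26.9, 27.5, 13.6 and 4.41. The rule for leading genes takes only genes higher in every library compared, so the agreement of the libraries was set by the choice. In epicardium and endoderm Rgs5 was compared only through the positive cells, since over both sides it was 19.9 and 14.3 CPM. Rgs5 is also a leading gene of smooth muscle, but it is a gene of that gate. Smooth muscle had 99.7 CPM of Isl1.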
